A study of Mus musculus with 15 samples.

Results

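Activated CD8+ T cells lacking Susd2 were compared with wild-type (WT) cells after 3 days of stimulation with antigen. Of 16057 genes tested 22 passed the test. They included the class I gene H2-Q6, the mitochondrial gene mt-Nd3 and its nuclear copy Gm28438, kinases, a lamin and regulators of T cell fate. Every mouse carried the OT-I transgene, a T cell receptor specific for the ovalbumin peptide OVA257-264, on a C57BL/6 background and was 8 to 10 weeks old. The groups differed in genotype (WT or Susd2-/-), and both were splenocytes cultured with the peptide for 3 days, from which CD8+ T cells were enriched with magnetic beads. The comparison took the 2 WT and 2 Susd2-/- libraries of day 3, which are 4 of the 8 libraries and 7 of the 15 lane columns of the series. The other 4 libraries, 2 of each genotype, are labelled naive CD8 T cells. They came from untreated splenocytes and are called day 0 here. The labels do not describe how the Susd2 allele was made, nor do they name the mouse behind each library. Each p-value therefore reads the spread between libraries only, and that spread may be technical.

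When a CD8+ T cell meets its antigen it makes interleukin 2 (IL-2) and the high-affinity IL-2 receptor, and the receptor's kinases JAK1 and JAK3 phosphorylate STAT5, which drives genes of growth, survival and effector function. SUSD2 is a membrane protein with a sushi domain, and it has been studied in CD8+ T cells as a restraint on IL-2 receptor signalling. The comparison therefore asks which transcripts of activated CD8+ T cells, those of the IL-2 pathway among them, differ with the Susd2 genotype.

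Susd2 checked the labels first. The gene lies on the minus strand at chr10:75636706-75644008 (GRCm38), and at day 3 WT libraries held 16 and 10 counts of it and Susd2-/- libraries 0 and 2. The groups did not overlap, but the gene is little expressed in activated cells of either genotype. Relative to library totals, Susd2-/- cells kept 5.72% of the WT level (exact 95% interval 0.658% to 22.9%, counting error only), and the log2 fold change was -3.96 ± 0.892 (standard error, SE) with an edgeR adjusted p of 0.112. At day 0, with 90 and 80 counts in WT and 1 and 3 in Susd2-/- cells, Susd2 fell (adjusted p = 2.32e-05). Other fits of day 3 mostly did not call it. The adjusted p was 0.635 in edgeR with the day 3 libraries alone, 0.0899 with the tool DESeq2 and 0.257 with the tool voom. In edgeR without a filter on expression the gene passed (adjusted p = 0.0106). Without WT library 2 of day 3 the log2 fold change was -4.17.

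The total count of the day 3 libraries ran from 30257547 to 53846911. Cd8a, a marker of the labelled cell type, stood at 757 and 768 CPM (counts scaled to a common library size with TMM factors) in WT and 719 and 729 in Susd2-/- libraries, and Cd3e was at 129, 128, 125 and 125 CPM. Cd8b1, the other CD8 chain, was at 296 and 313 CPM in WT and 251 and 277 CPM in Susd2-/- libraries. Its log2 fold change was -0.2 ± 0.0663 at day 3 (edgeR adjusted p = 0.38) and -0.27 at day 0 (edgeR adjusted p = 0.00534). Cd4 was at 0 in 3 of the 4 libraries and at 0.0674 CPM in Susd2-/- library 1. Over 9092 genes with an average log2 CPM of at least 3, the log2 difference between the libraries of a group had an SD of 0.214 in WT and 0.197 in Susd2-/- at day 3, against 0.147 and 0.155 at day 0. Lanes of 1 library at day 3 differed by an SD of 0.152 to 0.197 over the same genes.

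By edgeR's quasi-likelihood test, fitted to all 8 libraries with Benjamini-Hochberg adjustment over 16057 genes, 22 genes changed at an adjusted p below 0.05, which is 0.137% of the genes tested. Of these, 8 were higher in Susd2-/- cells (0.0498% of the genes tested) and 14 were lower (0.0872%), and 9 changed at least 2-fold. In all 22 both libraries of 1 genotype lay above both of the other. An average log2 CPM of at least 3 over the 8 libraries was reached by 9092 genes. Of these, 35 had a log2 fold change of at least 1 in size at day 3, and 161 did at day 0. The average covers both days, so some of the 35 had few counts at day 3. Lcn4, for example, had 0 and 0 counts in WT and 7 and 4 in Susd2-/- libraries. For 8362 of the 9092 genes (92%) the 95% interval of the day 3 difference lay within 1.5-fold in either direction. These intervals use the spread pooled over both days, which is smaller than that of the day 3 libraries alone.

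The calls rest on a spread pooled over both days, and the biological coefficient of variation was 10% in the day 3 libraries and 5.35% in the day 0 libraries. With the day 3 libraries alone, 3 genes passed (Gm28438, Igf2bp3 and Ifi208), or 12 when the same 16057 genes were tested, and 2 and 6 of these were among the 22. The 6 were Gm28438, Igf2bp3, Mid1, mt-Nd3, Gm10222 and Pim3. Without Susd2-/- library 2 of day 3, 6 of the 22 genes kept their call, and without WT library 2 of day 3, 13 did. Without WT library 1 and Susd2-/- library 1 of day 3, 20 and 21 did. Leaving out a day 0 library kept from 6 (without Susd2-/- library 4) to 20 (without WT library 3). Voom kept 9 of the 22, and besides Bcl2l11, Txk, Eomes and Tcf7 it did not call Furin, Lmna, Ulbp1, Cul9, Fam189b, Nnt, Nsg2, Tmem181b-ps and Gm10222. Gm28438 and Igf2bp3 alone kept their call under all 20 alternatives run for each.

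**Figure D1:**
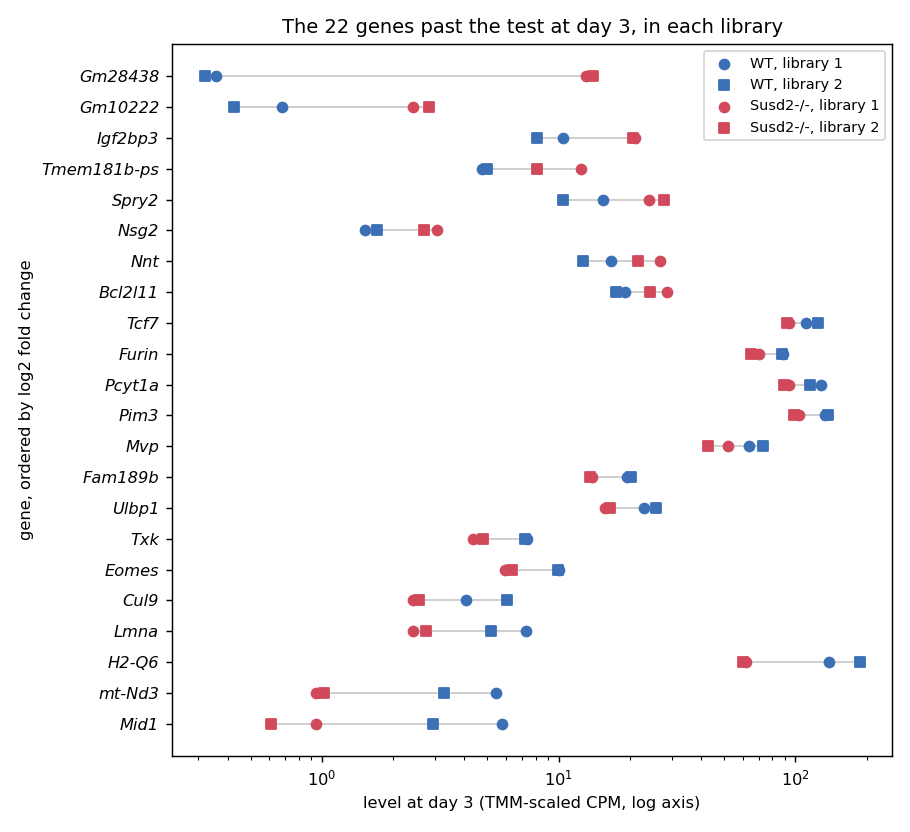
Level of each of the 22 genes in the 4 day 3 libraries (TMM-scaled CPM on a log axis), with WT in blue, Susd2-/- in red, circles for library 1 and squares for library 2. Both points of 1 genotype lie on the same side of both points of the other for every gene, and Gm28438 shows the widest gap, from 0.355 CPM or less in WT to 13 CPM or more in Susd2-/- libraries.

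**Figure D2:**
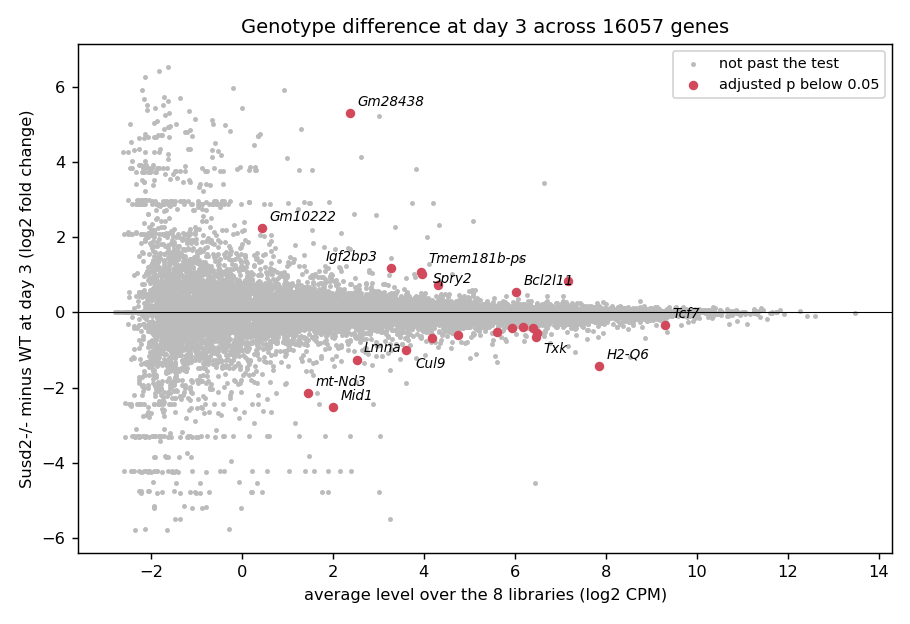
Log2 fold change of Susd2-/- over WT at day 3 against the average log2 CPM over the 8 libraries, 1 point per gene for 16057 genes. Red points are the 22 genes with an adjusted p below 0.05, and they lie among genes of higher and lower level alike, from Gm10222 to Tcf7.

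The pair of genes with the most lopsided counts was a mitochondrial gene and a nuclear copy of it. mt-Nd3 encodes a subunit of respiratory complex I on the mitochondrial genome (chrM:9459-9806), and Gm28438 is an unprocessed pseudogene on the minus strand of chromosome 1 (chr1:24612775-24613119) whose sequence is nearly that of mt-Nd3. Next to it lies Gm10222 (chr1:24612407-24612700), a copy of mt-Nd4l, which encodes a further complex I subunit. The first 60 bases of the GENCODE transcripts are shown because they hold the only base by which mt-Nd3 and Gm28438 differ. Over 345 aligned bases, 344 were identical, and the difference was T3C, counted from the 5′ end of the mt-Nd3 transcript, with that base in capitals.
mt-Nd3: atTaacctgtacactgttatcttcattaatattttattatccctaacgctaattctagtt
Gm28438: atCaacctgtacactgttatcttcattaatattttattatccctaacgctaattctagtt
Gm10222 and mt-Nd4l were identical over all 294 aligned bases, so no read from inside that stretch can be given to one rather than the other. Their shared start reads as follows.
mt-Nd4l: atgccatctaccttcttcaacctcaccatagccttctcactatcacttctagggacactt

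Gm28438 stood at 0.355 and 0.319 CPM in the WT libraries (11 and 9 counts) and at 13 and 14 CPM in the Susd2-/- libraries (385 and 710 counts). Both Susd2-/- libraries lay far above both WT libraries, and Gm28438 rose by 5.30 ± 0.29 on the log2 scale (adjusted p = 5.16e-09). mt-Nd3 went the other way, from 5.46 and 3.29 CPM in WT to 0.943 and 1.02 CPM in Susd2-/- libraries, a fall of -2.14 ± 0.342 (adjusted p = 0.016). The sum of both was 5.81 and 3.61 CPM in WT and 13.9 and 15 CPM in Susd2-/- libraries. mt-Nd3 and Gm28438 differ at 1 aligned base, so reads that miss it fit both. How reads were divided between the 2 genes was not tested.

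Gm10222 rose from 0.678 and 0.425 CPM to 2.43 and 2.82 CPM (log2 fold change 2.24 ± 0.42, adjusted p = 0.0395). Its mitochondrial counterpart mt-Nd4l, at 1.91 and 1.1 CPM in WT and 1.35 and 0.906 CPM in Susd2-/- libraries, overlapped between genotypes (adjusted p = 0.86). mt-Nd3 was the only 1 of 13 mitochondrially encoded genes to pass. mt-Co1, a subunit of cytochrome c oxidase, was at 4870, 4730, 4400 and 4520 CPM (adjusted p = 0.679). How the authors' counting treated reads that fit several places is not given in the sources used here, so the counts of these 4 genes are uncertain. The call of mt-Nd3 was lost without Susd2-/- library 2 of day 3, and that of Gm10222 without either library numbered 2 of day 3 or numbered 4 of day 0.

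H2-Q6 fell 2.67-fold in Susd2-/- cells. It is a nonclassical MHC class I gene on chromosome 17 (chr17:35424850-35430055) which with H2-Q7 encodes Qa-2, a class I molecule of lymphocytes that presents peptides. Its level was 139 and 187 CPM in WT and 61.9 and 60.2 CPM in Susd2-/- libraries. Both WT libraries were thus more than 2-fold higher than either Susd2-/- library, and H2-Q6 fell by -1.42 ± 0.116 on the log2 scale (adjusted p = 0.00368).

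The neighbours H2-Q7 and H2-Q5 had the same pattern without passing. H2-Q7 was at 121 and 176 CPM in WT against 68 and 61.1 CPM (log2 fold change -1.2 ± 0.184, adjusted p = 0.191), and H2-Q5 at 16.5 and 25.8 against 9.6 and 7.58 CPM (-1.32 ± 0.214, adjusted p = 0.146). In neither gene did the genotypes overlap, and both DESeq2 (adjusted p = 6.48e-07 for H2-Q7 and 7.1e-13 for H2-Q5) and limma's voom (0.000277 and 0.0129) called them. H2-Q10 had a similar fold (2, 4.35, 1.08 and 1.44 CPM, -1.31 ± 0.336, adjusted p = 0.191).

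The other class I genes differed less. H2-Q4 was at 102 and 115 CPM in WT and 95.5 and 80.5 CPM in Susd2-/- libraries, and the classical genes H2-K1 (log2 fold change -0.3 ± 0.0958) and H2-D1 (-0.3 ± 0.0917) did not pass. B2m, the light chain that every class I molecule shares, was at 801, 932, 788 and 802 CPM, and there WT library 1 and Susd2-/- library 2 were level. The H2-Q6 transcript matches that of H2-Q7 at 974 of 1025 aligned bases and that of H2-Q4 at 1199 of 1293, so reads may be split between these genes. H2-Q6 lost its call without Susd2-/- library 2 of day 3 or library 4 of day 0.

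Over the 24 genes of MHC class I and peptide loading, 1 passed (H2-Q6) and the median log2 fold change was -0.2, against 0 for all genes tested. At an unadjusted p below 0.05, 9 of the 24 were lower and 0 higher, where 4.83% of all genes were lower and 3.06% higher. WT library 2 stood apart in this list. Without it 4 were lower (2.82% of all genes), the median was -0.02, and H2-Q6 kept a log2 fold change of -1.16. Such shares over all genes shift with the library left out, and those that follow apply to every list counted with a library left out. Without WT library 1 of day 3, 7% of all genes were higher and 5.48% lower at an unadjusted p below 0.05, and without WT library 2 these were 4.35% and 2.82%. They were 2.94% and 7.48% without Susd2-/- library 1, and 2.65% and 2.95% without Susd2-/- library 2.

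Interferon genes showed the same library more plainly. In the type I interferon response list 0 of 41 genes passed edgeR's test, DESeq2 called 2 (Oasl1 and Oasl2) and voom 0. At an unadjusted p below 0.05, 6 were lower and 0 higher (4.83% and 3.06% of all genes), and the median was -0.21. Oasl1, an antiviral gene induced by interferon, was at 5.04 and 8.6 CPM in WT and 3.5 and 3.03 CPM in Susd2-/- libraries (adjusted p = 0.0747). Rsad2, which encodes viperin, was at 2.23 and 5.77 against 1.35 and 2.09 CPM (adjusted p = 0.531). In both genes WT library 2 was the highest of the 4, and the median of the list turned to 0.13 without it, with 6 genes higher and 2 lower at an unadjusted p below 0.05 (4.35% and 2.82% of all genes). Without WT library 1 instead, 28 of the 41 were lower (5.48% of all genes), 0 were higher and the median was -0.47.

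**Figure D3:**
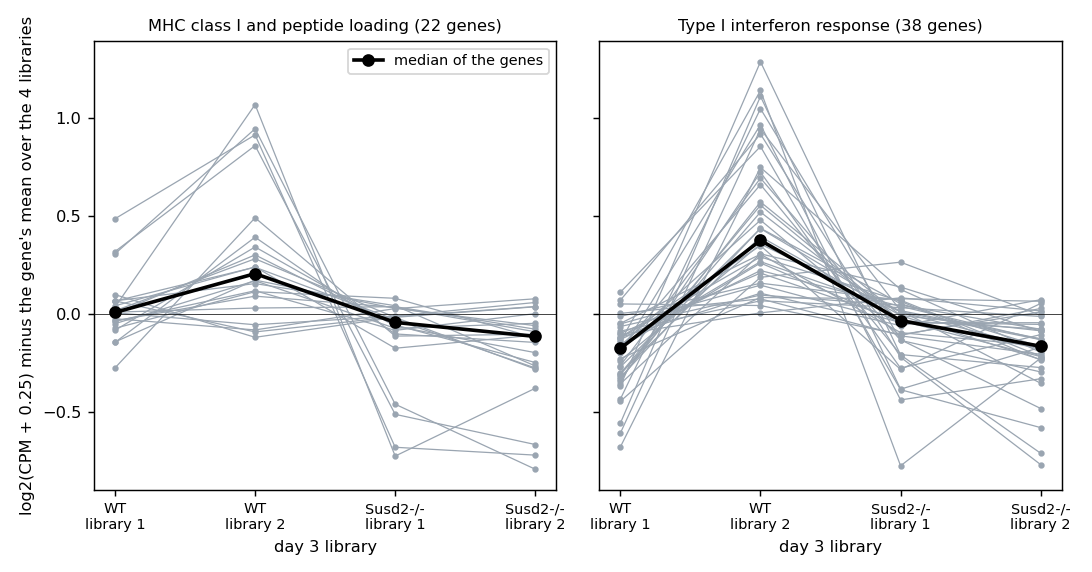
Log2(CPM + 0.25) minus each gene's own mean over the 4 day 3 libraries, for genes that reach 1 CPM in at least 1 of them: 22 class I and peptide loading genes on the left and 38 type I interferon genes on the right. Grey lines join the values of 1 gene, and the black medians are highest in WT library 2, at 0.21 and 0.37.

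Ifi208, an interferon-inducible gene of the HIN-200 family on chromosome 1, had a wide gap with few counts. It was at 2.23 and 4.96 CPM in WT (69 and 140 counts) and 0.135 and 0.158 CPM in Susd2-/- libraries (4 and 8 counts). The genotypes were well apart (log2 fold change -4.54 ± 0.613), yet the adjusted p was 0.127 in the 8-library fit and 0.0212 with the day 3 libraries alone. At day 0 Ifi208 was lower in Susd2-/- cells by -0.86 ± 0.183 (adjusted p = 0.0212).

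The receptor chains of the IL-2 pathway differed little between genotypes. Il2ra, the chain that gives the receptor its high affinity, was at 972 and 992 CPM in WT and 940 and 982 CPM in Susd2-/- libraries (log2 fold change -0.03 ± 0.0704). Il2rb, the signalling chain shared with the IL-15 receptor, was at 860, 817, 863 and 887 CPM (0.06 ± 0.0573), and Il2rg, the common gamma chain, at 124, 124, 124 and 120 CPM (-0.02 ± 0.0613). The genotypes overlapped for Il2ra, while both Susd2-/- libraries lay just above both WT libraries for Il2rb and just below them for Il2rg, by margins that did not pass. The 95% intervals of the log2 fold changes were -0.18 to 0.12 for Il2ra, -0.06 to 0.18 for Il2rb and -0.15 to 0.11 for Il2rg. They use the spread pooled over both days.

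Behind the receptor, the kinase Jak1 was at 290, 289, 296 and 294 CPM, slightly higher in both Susd2-/- libraries (log2 fold change 0.03 ± 0.0558), and Jak3 (191, 221, 212 and 188 CPM) overlapped between genotypes. Stat5a was at 132 and 125 CPM in WT and 119 and 104 CPM in Susd2-/- libraries (log2 fold change -0.21 ± 0.0797, adjusted p = 0.509). Stat5b was at 156, 169, 155 and 131 CPM (-0.18 ± 0.0747, adjusted p = 0.551), Stat3 at 485, 526, 450 and 432 CPM (-0.2 ± 0.0603, adjusted p = 0.328) and the adaptor Grb2 at 134, 139, 130 and 111 CPM (-0.18 ± 0.0743, adjusted p = 0.545). In these 4 genes both Susd2-/- libraries lay below both WT libraries, by margins that did not pass.

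Of the 17 genes of the receptor and STAT5 pathway, 0 passed in edgeR, DESeq2 or voom. At an unadjusted p below 0.05 (3.06% of all genes higher, 4.83% lower), 0 were higher and 4 were lower. That count was 1 without WT library 2 or without Susd2-/- library 2 of day 3, 2 without WT library 1 and 5 without Susd2-/- library 1. The other members ranged in log2 fold change from -0.15 (the adaptor Shc1) to 0.08 (Syk, under 1 CPM in every day 3 library).

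Among 46 tested genes that IL-2 or STAT5 is known to induce, 2 fell and 0 rose, where 0.0872% of all genes fell and 0.0498% rose. DESeq2 called 3 lower (Furin, Pim3 and Prf1) and 0 higher, and voom 2 lower (Pim3 and Ifng) and 0 higher. Pim3, a serine/threonine kinase of growth and survival, was at 133 and 137 CPM in WT and 104 and 98.7 CPM in Susd2-/- libraries. The libraries of a genotype lay close together, and Pim3 fell by -0.41 ± 0.0708 (adjusted p = 0.0219). Furin, a protease that cleaves proproteins such as that of TGF-beta, fell from 88.6 and 87.8 to 70 and 65.2 CPM (-0.39 ± 0.0722, adjusted p = 0.0395). The call of Furin was lost without any 1 of 7 libraries, all but Susd2-/- library 1 of day 3, and that of Pim3 without either library numbered 2 of day 3 or either Susd2-/- library of day 0.

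The median log2 fold change of these 46 genes was -0.07. At an unadjusted p below 0.05, 2 were higher and 10 lower (3.06% and 4.83% of all genes). The lower ones included Prf1, which encodes the pore-forming perforin, at 270 and 329 CPM in WT and 195 and 245 CPM in Susd2-/- libraries (-0.44 ± 0.115, adjusted p = 0.326). Without WT library 2 of day 3 the list had 4 lower and 3 higher, and a median of 0.01.

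Bcl2l11, Spry2 and Txk are brakes or relays of signalling and survival. Bcl2l11 encodes BIM, the BCL-2 family protein that kills T cells when survival cytokines run out, and it stood at 19.1 and 17.4 CPM in WT and 28.8 and 24.2 CPM in Susd2-/- libraries. Both Susd2-/- libraries were higher, and Bcl2l11 rose by 0.53 ± 0.0907 (adjusted p = 0.0219), the only 1 of 29 BCL-2 family and death genes to pass.

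Spry2, a feedback inhibitor of receptor tyrosine kinase and ERK signalling, was at 15.4 and 10.4 CPM in WT and 24.1 and 27.8 CPM in Susd2-/- libraries. It rose by 1.01 ± 0.161 (adjusted p = 0.018), while 0 of the other 14 ERK feedback inhibitors tested passed. Those included Dusp7 (23.1, 25.9, 19.7 and 20.2 CPM), a phosphatase of ERK, which lay lower in both Susd2-/- libraries (adjusted p = 0.389). Txk, a Tec family kinase of T cell receptor signalling, fell from 7.33 and 7.22 to 4.34 and 4.79 CPM (-0.66 ± 0.11, adjusted p = 0.0202), alone among 25 genes of proximal receptor signalling.

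The calls of Spry2 and Txk were lost without Susd2-/- library 2 of day 3, and those of Spry2 and Bcl2l11 without Susd2-/- library 4 of day 0. Voom did not call Bcl2l11 or Txk.

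Eomes and Tcf7, transcription factors of the memory program, were both lower. Eomes, a T-box factor of memory and effector CD8+ T cells, fell from 10 and 9.91 CPM in WT to 5.93 and 6.36 CPM in Susd2-/- libraries (-0.69 ± 0.131, adjusted p = 0.0395). Tcf7, which encodes TCF-1 and is high in naive and stem-like T cells, fell from 111 and 125 to 94.1 and 92.4 CPM (-0.34 ± 0.0667, adjusted p = 0.0489). In each gene the genotypes did not overlap.

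The other 28 naive, memory and quiescence genes did not pass, and the list's median was -0.01. Myb, a factor of stem-like cells, was higher in both Susd2-/- libraries without passing (18.7 and 19.9 against 25.7 and 24.1 CPM, 0.37 ± 0.0982, adjusted p = 0.226), and Klf3, a quiescence factor, lower (11.4 and 12.2 against 10.2 and 9.12 CPM, adjusted p = 0.256). Of 18 effector transcription factors 0 passed in edgeR, DESeq2 or voom. At an unadjusted p below 0.05, 1 was higher (Id2, 0.37 ± 0.103, adjusted p = 0.256) and 1 lower (Irf8, -0.16 ± 0.0764, adjusted p = 0.627). Over all genes 3.06% were higher and 4.83% lower. The calls of Eomes and Tcf7 were lost without either library numbered 2 of day 3 or any 1 day 0 library, except that Eomes kept its call without WT library 3. Voom called neither.

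Of the 23 cytotoxic effector genes tested, 0 passed in edgeR and voom and 1 (Prf1) in DESeq2. At an unadjusted p below 0.05, 10 were lower and 0 higher, where 4.83% of all genes were lower and 3.06% higher. Nkg7, a granule membrane protein, was at 207 and 224 CPM in WT and 171 and 192 CPM in Susd2-/- libraries (-0.25 ± 0.0689, adjusted p = 0.256). Serpinb9, an inhibitor of granzyme B, was at 310, 276, 216 and 256 CPM (-0.31 ± 0.0853, adjusted p = 0.256), and Serpinb6b at 204, 198, 155 and 173 CPM (-0.29 ± 0.0678, adjusted p = 0.127). In these genes both WT libraries were higher. Leaving out a day 3 library gave 4 to 8 lower and 0 to 5 higher cytotoxic genes at an unadjusted p below 0.05, the 4 lower without WT library 2 and the 5 higher, equal to the lower, without WT library 1.

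Among 25 cytokine and chemokine genes, 0 passed in edgeR and DESeq2 and 1, Ifng, in voom (adjusted p = 0.0179). At an unadjusted p below 0.05, 5 were lower and 0 higher (4.83% and 3.06% of all genes). Ifng, the hallmark cytokine of CD8+ effectors, was at 583 and 529 CPM in WT and 295 and 410 CPM in Susd2-/- libraries (-0.65 ± 0.187, edgeR adjusted p = 0.498). Il3 was at 13.6 and 11.9 against 7.14 and 8 CPM (-0.75 ± 0.205, adjusted p = 0.256). Both Susd2-/- libraries were below both WT libraries for each cytokine, but the Susd2-/- libraries themselves differed widely for Ifng. The list's median of -0.23 became -0.02 without WT library 1, and in that fit 3 genes were higher and 3 lower. Without WT library 2, 8 were lower and 0 higher, and without Susd2-/- library 1, 3 were lower and 0 higher.

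Structural proteins, a ligand and ubiquitin ligases made up most of the other genes that fell. Lmna encodes lamin A/C of the nuclear envelope, and it fell from 7.3 and 5.2 CPM in WT to 2.43 and 2.76 CPM in Susd2-/- libraries (-1.26 ± 0.22, adjusted p = 0.0219), as 1 of 16 nuclear envelope genes. Mid1, an X-linked microtubule-associated ubiquitin ligase, fell from 5.75 and 2.94 to 0.943 and 0.611 CPM (-2.53 ± 0.338, adjusted p = 0.00368). The WT libraries of Mid1 differed widely from each other, and both stayed above both Susd2-/- libraries.

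Ulbp1, a ligand of the activating receptor NKG2D, fell from 23 and 25.9 to 15.7 and 16.4 CPM (-0.6 ± 0.109, adjusted p = 0.0329). Mvp, the major vault protein, fell from 63.9 and 72.8 to 52.1 and 42.6 CPM (-0.53 ± 0.0971, adjusted p = 0.0386). Cul9, a cullin that binds p53 in the cytoplasm, fell from 4.07 and 6.02 to 2.43 and 2.58 CPM (-1 ± 0.193, adjusted p = 0.0489), and 0 of the other 22 p53-related genes tested passed. Fam189b fell from 19.4 and 20.2 to 13.8 and 13.5 CPM (-0.54 ± 0.081, adjusted p = 0.00916). Without Susd2-/- library 2 of day 3 the calls of Lmna, Ulbp1, Mvp, Cul9 and Fam189b were lost, and that of Mid1 was not. Those of Lmna, Ulbp1, Mvp and Cul9 were also lost without Susd2-/- library 4 of day 0, those of Ulbp1, Mvp and Cul9 without WT library 2 of day 3 or WT library 4 of day 0, and that of Ulbp1 without Susd2-/- library 3 of day 0.

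Metabolic genes among the 22 were Pcyt1a and Nnt. Pcyt1a encodes the rate-limiting enzyme of phosphatidylcholine synthesis, and it fell from 128 and 115 CPM to 93.6 and 89.6 CPM (-0.41 ± 0.078, adjusted p = 0.0395), alone among 17 phospholipid genes. Nnt encodes the mitochondrial transhydrogenase that makes NADPH, and it is the gene in which the C57BL/6J substrain is known to carry a deletion. It rose from 16.6 and 12.7 to 26.7 and 21.7 CPM (0.72 ± 0.14, adjusted p = 0.0489). Both calls were lost without either library numbered 4 of day 0. That of Pcyt1a was also lost without Susd2-/- library 3 of day 0, WT library 1 or Susd2-/- library 2 of day 3, and that of Nnt when either WT library 2 or the first Susd2-/- library, both of day 3, was left out. The labels give the strain as C57BL/6 with no substrain, and the part of strain background in these differences was not tested.

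Igf2bp3, an RNA-binding protein of fetal tissues and tumours, rose from 10.4 and 8.11 CPM to 21.1 and 20.7 CPM (1.17 ± 0.167, adjusted p = 0.00585). Tmem181b-ps, a transcribed pseudogene of the Tmem181 family, rose from 4.75 and 4.96 to 12.4 and 8.13 CPM (1.06 ± 0.18, adjusted p = 0.0219). Its relative Tmem181a (16.8, 16.5, 15.6 and 17.1 CPM) overlapped between genotypes. Nsg2, a vesicle protein known from neurons, rose from 1.52 and 1.7 to 3.06 and 2.7 CPM (0.82 ± 0.143, adjusted p = 0.0219). Without Susd2-/- library 4 of day 0 the calls of Tmem181b-ps and Nsg2 were lost, and that of Nsg2 also without Susd2-/- library 2 of day 3.

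Cholesterol synthesis genes were more often higher than lower. Of 24 genes 0 passed in edgeR and voom and 1, Hmgcs1, in DESeq2 (adjusted p = 0.0112). At an unadjusted p below 0.05, 7 were higher and 0 lower (3.06% and 4.83% of all genes). The median log2 fold change was 0.16. Hmgcs1, which makes the precursor of mevalonate, was at 138 and 151 CPM in WT and 180 and 179 CPM in Susd2-/- libraries (0.31 ± 0.067, edgeR adjusted p = 0.0862). Cyp51 was at 225 and 246 against 279 and 290 CPM (0.27 ± 0.0718, adjusted p = 0.207). Both Susd2-/- libraries were higher in each gene. The count of higher genes was 13 without WT library 2 (4.35% of all genes), 5 without Susd2-/- library 1 (2.94%) and 4 without Susd2-/- library 2 (2.65%), each with 0 lower. Without WT library 1, 4 were higher and 2 lower (7% and 5.48% of all genes).

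Cell division and protein synthesis genes showed no difference past the test. Of 35 G2 and mitosis genes, 37 of DNA replication and 48 cytosolic ribosomal proteins, 0 passed in edgeR, DESeq2 or voom and 0 reached an unadjusted p below 0.05, and the medians were -0.01, 0.04 and 0.01. At day 0 the same lists had 30 higher and 1 lower, 15 higher and 0 lower, and 0 higher and 42 lower genes past the test. Over all genes 11.5% passed as higher and 12.1% as lower at day 0, against 0.0498% and 0.0872% at day 3. The mitotic survivin gene Birc5 was at 147, 141, 153 and 160 CPM at day 3 (0.12 ± 0.0903), against a day 0 log2 fold change of 1.04 (interaction of genotype and day, adjusted p = 0.000985). For Rps24 the day 3 value was 0.08 ± 0.064 and the day 0 value -0.59 (interaction, adjusted p = 7.88e-05). Without WT library 1 of day 3 the medians of the mitosis, replication and ribosomal protein lists were 0.06, 0.1 and 0.01, against 0.04 for all genes. The median of 28 ribosome biogenesis genes was -0.01 with all libraries and 0.11 without WT library 1.

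**Figure D4:**
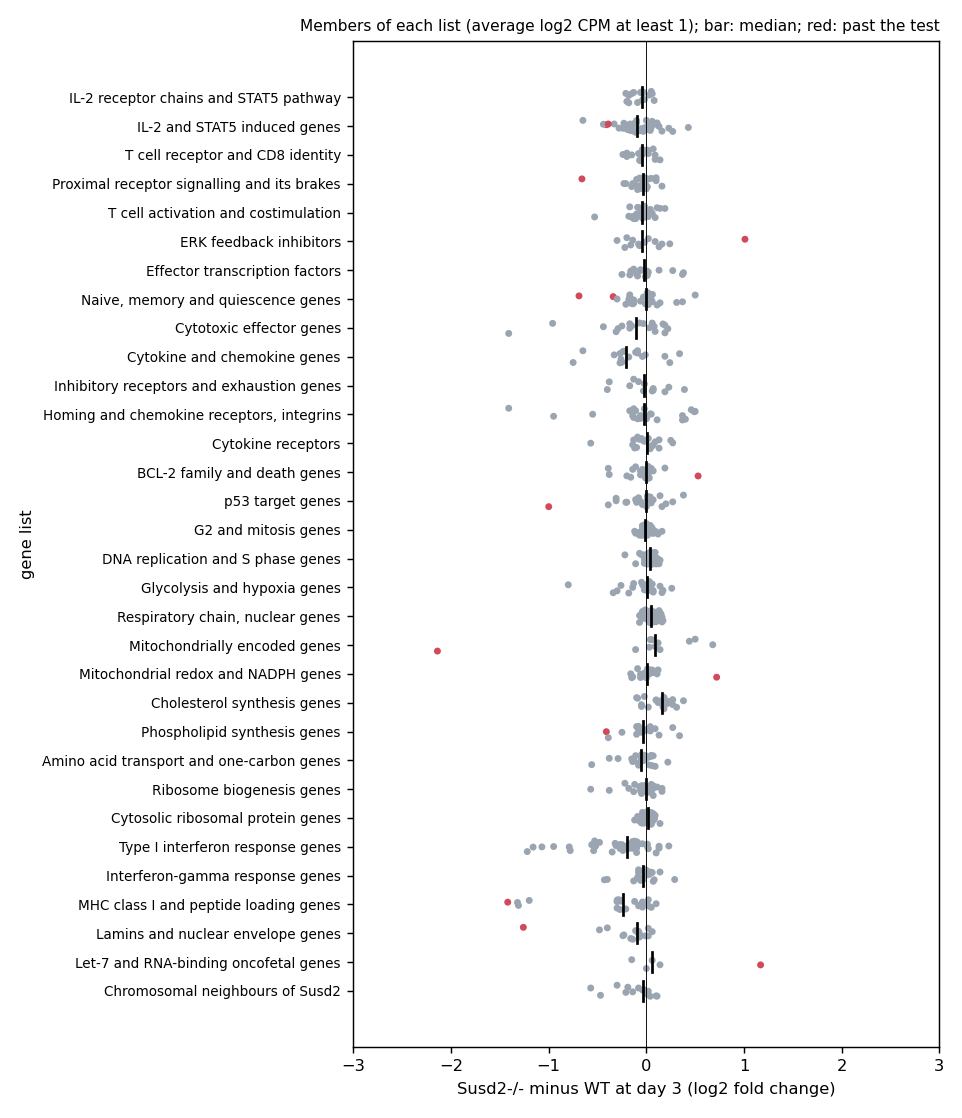
Log2 fold change of Susd2-/- over WT at day 3 for the members of each of the gene lists with an average log2 CPM of at least 1, 1 point per gene with small vertical jitter. Black bars are medians over the points drawn, red points are genes with an adjusted p below 0.05, and the points of mitosis, replication and ribosomal protein genes lie close to 0.

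Of 21 genes tested that neighbour Susd2 on chromosome 10, 0 passed in edgeR, DESeq2 or voom. At an unadjusted p below 0.05, 1 (Bcr, -0.3 ± 0.109, adjusted p = 0.45) was lower, where 4.83% of all genes were.

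The motif TTCNNNGAA, the core of STAT binding sites, was searched on both strands from 250 bases before to 50 after gene starts, in RefSeq windows of GRCm38. Of the 22 genes 17 had a window, and 1 of these (Nsg2) held the motif, against 897 of 10581 tested genes with a window (8.48%).

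The 22 genes were also measured in the day 0 libraries, which lie outside the day 3 contrast but share the estimate of the spread that made its calls. At day 0, 11.5% of the 16057 genes passed as higher in Susd2-/- cells and 12.1% as lower. Of the 22 genes, 9 passed at day 0 in the same direction: Gm28438, Igf2bp3, Bcl2l11, Tmem181b-ps and Nnt among the 8 higher ones, and H2-Q6, Fam189b, mt-Nd3 and Cul9 among the 14 lower ones. Another 4, Pim3, Lmna, Furin and Pcyt1a, passed at day 0 in the opposite direction, and 9 did not pass.

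Igf2bp3, Nnt and Bcl2l11 were higher in Susd2-/- cells on both days, and their interaction of genotype and day did not pass. Igf2bp3 was at 2.09 and 2.73 CPM in WT and 5.47 and 5.26 CPM in Susd2-/- libraries at day 0, a log2 fold change of 1.16 ± 0.202, beside 1.17 ± 0.167 at day 3. Nnt was at 15.8 and 14.5 against 25.7 and 25.6 CPM (0.76 ± 0.14, beside 0.72 at day 3), and Bcl2l11 at 82.5 and 82.8 against 133 and 137 CPM (0.71 ± 0.0804, beside 0.53 at day 3). H2-Q6 was lower on both days. It was at 455 and 463 against 250 and 243 CPM at day 0 (-0.9 ± 0.112), beside -1.42 ± 0.116 at day 3 (interaction -0.52, adjusted p = 0.0626). In each of these genes the libraries of the genotypes did not overlap at day 0 either.

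Pim3 turned around, from 42.6 and 38.7 CPM in WT and 64.2 and 60.4 CPM in Susd2-/- libraries at day 0 (0.62 ± 0.0746, adjusted p = 8.94e-06) to the fall of day 3. Lmna did the same, from 5.06 and 4.82 against 9.11 and 9.71 CPM at day 0 (0.93 ± 0.208, adjusted p = 0.00307). Mid1 overlapped between genotypes at day 0, with 5.28 and 5.91 CPM in WT and 5.19 and 5.95 CPM in Susd2-/- libraries. The interaction of genotype and day passed for 13 of the 22 genes, where 13.5% of all genes passed, but it shares the day 3 libraries that chose the genes.

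**Figure D5:**
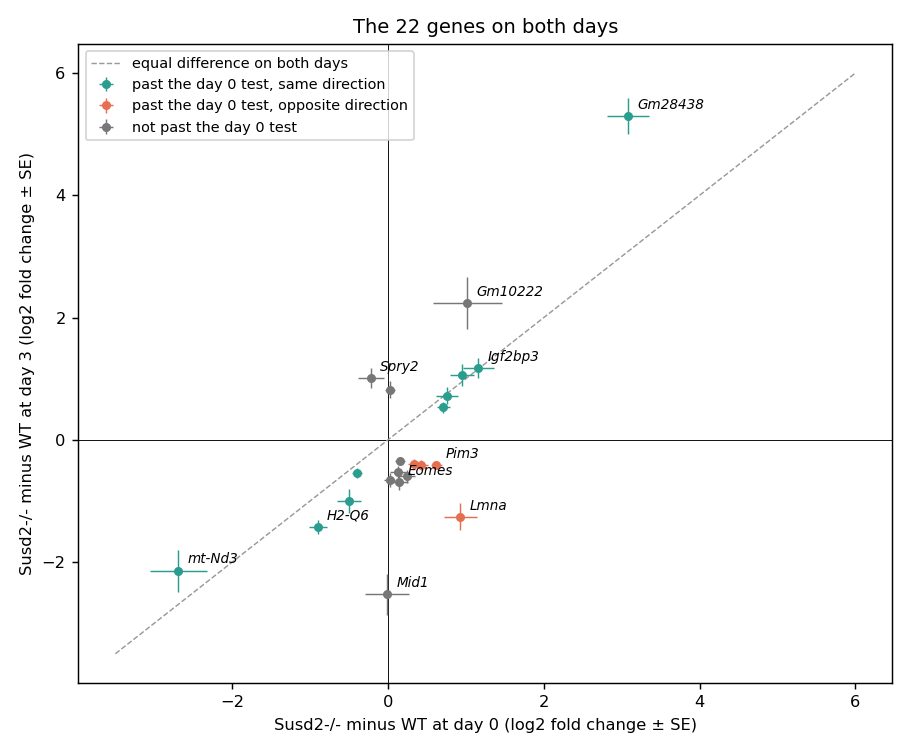
Log2 fold change of Susd2-/- over WT at day 3 (vertical) against day 0 (horizontal) for the 22 genes, with bars of ± 1 SE. The 9 green points passed at day 0 in the same direction, the 4 orange points passed in the opposite direction, and the 9 grey points did not pass at day 0.

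The summed levels of the larger marker lists of other cells at day 3 rested on a few genes each. The CD4 and regulatory T cell markers summed to 1290, 1360, 1260 and 1300 CPM, most of it Il2ra and Tnfrsf4 (256, 309, 259 and 261 CPM), with Cd4 at 0 in both WT libraries and 0.0674 and 0 CPM in Susd2-/- libraries and Foxp3 at 0.0354 to 0.135 CPM. The dendritic cell markers summed to 476, 579, 498 and 436 CPM, nearly all of it Ccr7, Bst2 and Batf3, with Itgax at 0.0788 to 0.226 CPM. The plasma cell markers summed to 184, 206, 187 and 190 CPM, nearly all of it Xbp1 and Sdc1, with Jchain at 0 to 0.0674 CPM.

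The summed level of the B cell markers was 284 and 282 CPM in WT and 308 and 296 CPM in Susd2-/- libraries, nearly all of it Ighm (264, 256, 288 and 276 CPM), which encodes the IgM heavy chain, and 15 of the 20 were under 1 CPM in every library. The monocyte and macrophage markers summed to 45.1, 49.8, 42.5 and 42.4 CPM, with 7 of 19 tested at 0 in all 4 libraries, and Csf1r at 0, 0.0708, 0.0674 and 0 CPM. The natural killer and innate lymphoid markers, which include Eomes, summed to 29.9, 28.4, 26.1 and 27.9 CPM, with Ncr1 at 0.517 and 0.637 CPM in WT and 0.0674 and 0.433 CPM in Susd2-/- libraries. Gamma-delta T cell markers summed to 21.4, 22.3, 19 and 18.1 CPM, the erythroid and platelet markers to 2.07, 1.2, 2.32 and 2.5 CPM, and 3 tested neutrophil markers to 0 to 0.0646 CPM. Of the 98 marker genes of these and other cell types tested, Eomes alone passed, and the part of other cells in the results above was not tested. In bulk RNA, fewer cells of a type and less RNA per cell cannot be told apart.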

How the data were processed

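Poly(A) RNA of bead-enriched splenic CD8+ T cells was sequenced as stranded paired-end libraries, per the labels' protocols. The deposited table holds raw counts per gene symbol and sequencing lane, without normalization, in 15 columns. The build is GRCm38, and Subread 2.0.1, SAMtools 1.10, HISAT2 2.1.0 and fastp 0.23.2 were used, per the submitters' processing notes, which give no roles. For the annotation release, the strand setting and multi-mapping reads, the choice is not given in the sources used here. This leaves counts of near-identical copies and of overlapping genes uncertain.

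Lanes of a library were summed (WT library 2 of day 3 has 1 lane), and libraries served as replicates. Genes were kept by filterByExpr on the 4 groups (16057 genes). All 8 libraries were fitted in edgeR 4.0.16 (R 4.3.3) by the robust quasi-likelihood F test after TMM scaling, with Benjamini-Hochberg adjustment over all genes kept. A gene changed, rose or fell where its adjusted p was below 0.05. The SE was computed as the log2 fold change over the square root of F. Levels are TMM-scaled CPM, listed as WT library 1, WT library 2, Susd2-/- library 1 and Susd2-/- library 2. Intervals from counts cover counting error only. DESeq2 1.42.0 and voom with a weight per group (limma 3.58.1) were alternatives, with other scalings, filters, lanes, a replicate block and leaving out each library. The edgeR procedure was tested on simulated data.

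The comparison and the gene lists were chosen with earlier results of these data known. The rule for naming took Susd2, every gene past the test, the IL-2 receptor and STAT5 pathway list, up to 4 genes of smallest p from every other list and the largest differences not called, and the text names a part of these. The other class I genes, mt-Nd4l, Tmem181a and cell type markers beyond that were named after their values were seen. Transcript sequences and positions come from GENCODE on GRCm38.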

Additional observations from a re-analysis of the deposited data

Results flagged for a closer look

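In 13 of the 22 genes the difference between genotypes at day 3 differed from that at day 0 by the interaction test of genotype and day (edgeR, adjusted over all genes). The interaction is the day 3 log2 fold change minus that of day 0, and the genes were chosen by the day 3 libraries it contains. For 4 genes that passed on both days in opposite directions it was -1.03 for Pim3 (adjusted p = 3.38e-06), -2.19 for Lmna (0.000111), -0.72 for Furin (0.000153) and -0.83 for Pcyt1a (0.000205). Gm28438, higher on both days, had 2.22 (0.00265).

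For genes that did not pass at day 0 it was -2.53 for Mid1 (adjusted p = 0.000935), 1.23 for Spry2 (0.00197), -0.68 for Txk (0.00195) and 0.8 for Nsg2 (0.00211). It was -0.84 for Ulbp1 (0.00112), -0.66 for Mvp (0.00408), -0.83 for Eomes (0.00378) and -0.49 for Tcf7 (0.00168). Txk, Nsg2 and Tcf7 had far lower CPM at day 3 than at day 0 in WT libraries: Txk 166 and 174 at day 0 against 7.33 and 7.22 at day 3, Nsg2 289 and 278 against 1.52 and 1.7, and Tcf7 1100 and 1110 against 111 and 125.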

How the results depend on the processing

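The count of 22 genes was 17 to 29 with voom, 2 other scalings, thinning to the smallest library and the filter at 1 CPM, and 16 with lane 1 only. These counts do not say which genes passed: voom kept 9 of the 22 and lane 1 kept 8, against 21 with thinning, 18 with the filter at 1 CPM and 22 with either scaling. It was 3 with the day 3 libraries alone and 12 with these and the same genes (an alternative chosen after seeing the data). DESeq2 gave 66, no filter 138, a mean of at least 10 CPM 13 and the test without robust settings 13, which held 22, 22, 11 and 9 of the 22. Leaving out 1 library gave 6 (without Susd2-/- library 4 of day 0) to 392 (without Susd2-/- library 1 of day 3), with 309 without WT library 1, 59 without WT library 2 and 12 without Susd2-/- library 2 of day 3. A lone library is then taken to vary like the other groups. With a replicate block the count was 17 and 10 of the 22 kept their call. Libraries with the same number did not deviate together at day 3 (r = -0.0794 across 9092 genes). That is 1 correlation, and it cannot tell whether libraries with the same number were handled together. Of 456 values computed for the 22 genes under alternatives, 297 kept direction and call, 159 lost the call and 0 reversed. The cause of these shifts was not tested. Susd2 passed without a filter (-3.91, adjusted p = 0.0106), and leaving out 1 library gave -6.74 to -3.35. The count of 9 genes that passed at day 0 in the same direction was 8 or 9 under the alternatives run for it. Of 283 list medians, 89 moved by more than the spread between libraries. Other scalings moved the median of all genes by 0.007 and 0.014.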

Other observations

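Surface and homing genes of T cells were measured beside the pathways above. Of 18 T cell receptor and CD8 identity genes 0 passed in edgeR, DESeq2 or voom. At an unadjusted p below 0.05, 5 were lower and 0 higher (4.83% and 3.06% of all genes). Cd247, the zeta chain of the receptor complex, was at 170 and 179 CPM in WT and 145 and 150 CPM in Susd2-/- libraries at day 3 (-0.24 ± 0.0626, adjusted p = 0.214), and Cd5, a receptor that dampens T cell receptor signals, at 264, 265, 234 and 227 CPM (adjusted p = 0.326). Both genes were lower in both Susd2-/- libraries. The count of lower genes was 2 to 4 with 1 day 3 library left out, the 2 without WT library 1. Among 19 inhibitory receptor and exhaustion genes 0 passed in edgeR, DESeq2 or voom. Ctla4 was at 396 and 496 CPM in WT and 523 and 520 CPM in Susd2-/- libraries (adjusted p = 0.461), and Lag3 at 282, 409, 260 and 263 CPM (adjusted p = 0.627), where WT library 2 lay above the other libraries. Gpr183, a homing receptor for oxysterols, was at 10.1 and 12.2 against 8.55 and 6.81 CPM (-0.55 ± 0.128, edgeR adjusted p = 0.127), and DESeq2 called it (adjusted p = 0.0325), as the only 1 of 26 homing genes.

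Of 42 nuclear genes of the respiratory chain 0 passed in edgeR, DESeq2 or voom. At an unadjusted p below 0.05, 3 were higher and 0 lower (3.06% and 4.83% of all genes). Cox7b, a cytochrome c oxidase subunit, was at 112, 107, 117 and 129 CPM at day 3 (0.17 ± 0.0705), against a day 0 log2 fold change of -0.6 (interaction of genotype and day, adjusted p = 7.42e-05). The count of higher genes was 10 without WT library 1, 6 without Susd2-/- library 1 and 0 without either library numbered 2 of day 3. Of 26 glycolysis and hypoxia genes 0 passed in the same 3 tools, and Hk1, a hexokinase, was lower in both Susd2-/- libraries (269 and 320 against 255 and 239 CPM, adjusted p = 0.256). Among the largest differences that did not pass, Sytl2, which encodes a tether of secretory granules, was at 1.94 and 1.84 CPM in WT and 3.7 and 3.43 CPM in Susd2-/- libraries (0.91 ± 0.183, adjusted p = 0.0577). Tgm2, a transglutaminase, was at 15.4 and 38.6 against 10.7 and 11.9 CPM (adjusted p = 0.616), and the gap between its WT libraries was wider than that between genotypes.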
